A study of Homo sapiens with 26 samples.

Results

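The mitochondrial ribosomal protein genes (MRP genes) were taken as all protein coding genes whose symbol is MRPL or MRPS followed by a number, which gave 78 of the 20046 protein coding genes of the annotation. By symbol, 49 belong to the large subunit and 29 to the small subunit, and they lie on 21 chromosomes. Their proteins are short, with a median of 195 amino acids (aa) and a range of 65 to 439 aa: 41 are below 200 aa (short), 33 are intermediate, and only MRPS30 (439 aa), MRPS5 (430 aa), MRPL37 (423 aa) and MRPS27 (414 aa) exceed 400 aa (long). By textbook homology, 48 have a bacterial counterpart and 30 do not. The symbols are not exact guides to structure, since the MRPS30 and MRPS18A proteins sit in the large subunit and MRPS36 is now known as a component of the 2-oxoglutarate dehydrogenase complex.

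The data came from LOCL-TL, a proximity labeling method in which a blue light activated biotin ligase (LOV-BirA) marks nearby ribosomes that carry an Avi tag on RPL29. All 26 libraries were made from HEK293T, which derives from human embryonic kidney, with RPL29 tagged at its own locus, and LOV-BirA was delivered by lentivirus into sorted polyclonal cells. For ribosome profiling, LOV-BirA was held on the outer mitochondrial membrane (OMM) as a GFP-OMP25 fusion under EF1α, at the endoplasmic reticulum (ER) as a Sec61β fusion under SFFV, or left in the cytosol under EF1α, each with 2 replicates of streptavidin pulldown and of total input from the same lysate. RNA-seq read the whole transcripts bound to ribosomes labeled at the OMM. The lines were wild type (WT, with a negative control guide), AKAP1 null and LARP4 null, again with 2 replicates of each fraction. Cells without cycloheximide, whose labels name no genotype or guide, had 1 replicate of each fraction. The sample titles of all the other groups do not name cycloheximide, which holds ribosomes on their messages. These groups were taken as treated with it, from the general protocol. Each null line was a single clone. Within a location or genotype, the only difference between the fractions was the pulldown.

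The mitochondrial ribosome (mitoribosome) translates the few messages of the mitochondrial genome, all of which encode parts of the respiratory chain and ATP synthase. Its RNAs are made inside the organelle, but its proteins are encoded in the nucleus, made on cytosolic ribosomes and imported, most of them through an amino-terminal targeting sequence that is rich in arginine and poor in acidic residues. AKAP1 is an OMM protein that anchors protein kinase A and binds RNA, and LARP4 is an RNA binding protein that associates with poly(A) tails.

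The first 90 coding bases are shown for 5 MRP genes on which the results below turn, from the GRCh38 sequence and the GENCODE transcript of each gene, with codons for arginine or lysine in capitals. MRPL51 (ENSG00000111639) and MRPL55 (ENSG00000162910) had the strongest footprint enrichment at the OMM of all MRP genes tested, and MRPL37 (ENSG00000116221) the strongest of the long ones. MRPS2 (ENSG00000122140) was called lower there, a call that was lost with DESeq2 and without either OMM replicate. MRPL32 (ENSG00000106591) was enriched at the ER. MRPL51 starts on the minus strand of chromosome 12, in exon 1 (chr12:6493058-6493136) and exon 2 (chr12:6492962-6492972). MRPL55 starts on the minus strand of chromosome 1, in exon 3 (chr1:228108235-228108260) and exon 4 (chr1:228107806-228107869). MRPL37 starts on the plus strand of chromosome 1, within exon 1 (chr1:54200244-54200333). MRPS2 starts on the plus strand of chromosome 9, in exon 1 (chr9:135500711-135500753) and exon 2 (chr9:135500998-135501044), and MRPL32 on the plus strand of chromosome 7, within exon 1 (chr7:42932387-42932476).
MRPL51: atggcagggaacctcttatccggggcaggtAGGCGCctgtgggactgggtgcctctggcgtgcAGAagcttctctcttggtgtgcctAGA
MRPL55: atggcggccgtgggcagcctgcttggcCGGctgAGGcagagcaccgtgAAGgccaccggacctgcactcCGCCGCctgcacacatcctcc
MRPL37: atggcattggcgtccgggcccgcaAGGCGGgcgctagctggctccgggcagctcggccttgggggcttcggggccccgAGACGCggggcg
MRPS2: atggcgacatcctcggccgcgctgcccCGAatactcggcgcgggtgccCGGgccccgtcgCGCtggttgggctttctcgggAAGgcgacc
MRPL32: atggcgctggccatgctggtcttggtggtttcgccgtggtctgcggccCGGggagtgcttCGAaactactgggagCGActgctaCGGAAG

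Each of these starts holds 4 or 5 basic codons and at most 1 acidic codon (aspartate or glutamate). Over all 78 MRP genes, the first 30 codons held a median of 4 arginine or lysine codons and 0 acidic codons. Of the 78, 42 (53.8%) had no acidic codon in this window. Among 19687 protein coding genes the number was 2500 (12.7%), and their medians were 3 basic and 3 acidic codons. This set leaves out the shortest coding sequences and those that do not start with ATG. The number of basic codons ran weakly with OMM footprint enrichment across MRP genes (Spearman's rho = 0.35, n = 63) and more weakly with OMM enrichment in RNA-seq (rho = 0.16, n = 77). These are descriptions across genes, which are not independent replicates.

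Depth differed between the assays. Ribosome profiling libraries held 1025114 to 19539527 footprints in coding sequence, and RNA-seq libraries 38347615 to 100840544 gene counts. All replicate pairs differed by more than sampling noise. The labels number the replicates without saying how they were grown, so with 2 per group the p-values measure only the spread between these samples, which may be technical. Of 6 genes fixed as HEK293 markers, VIM, KRT18, CDH2 and NEFM were at 6.98 FPKM (counts per kilobase of gene, scaled to library size) or more in all total inputs, with VIM highest at 85.3 to 134 FPKM, while KRT8 (0.563 to 2.94 FPKM) and PAX2 (0.797 to 1.56 FPKM) were low. PTPRC, ALB, HBB, CD3E and INS, which mark lineages these cells do not belong to, were at 0.046 FPKM or less.

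Not every MRP gene could be measured in footprints. The deposited footprint counts merge genes whose annotated exons overlap and cover only part of some coding sequences, so that 66 MRP genes had an entry of their own, 11 shared one with a neighbor (MRPL2, MRPL12, MRPL30, MRPL33, MRPL38, MRPL46, MRPL53, MRPS6, MRPS17, MRPS24 and MRPS28) and MRPL23 had no countable coding position. MRPL10, MRPL48 and MRPS36 fell under the minimum of 64 footprints in each OMM total input, which left 63 MRP genes in the OMM comparison. The same minimum left 63 at the ER, where MRPS36 passed and MRPL21 did not, and 61 in the cytosol. At least 50% of the coding sequence was counted in 42 of the 63 tested at the OMM. In RNA-seq, 77 passed, and MRPL53 did not. Between genes, levels in total input are comparable per length in the 42 genes with enough coding sequence counted: they ranged from 41.9 RPKM (footprints per kilobase of counted coding sequence, scaled to mapped reads; MRPS30) to 348 RPKM (MRPL41), with a median of 126 against 29.4 for all 6436 genes, and all 42 lay above that median. The RNA level ran from 0.831 FPKM for MRPS24, whose exons overlap a read-through gene, to 108 FPKM for MRPL37, with a median of 21.1 against 5.73 for all 13856 genes tested.

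Translation of MRP messages was enriched at the OMM. Of the 63 MRP genes tested, 39 had more footprints in the OMM pulldown than in total input, 2 had fewer, and 22 did not pass the test (edgeR's quasi-likelihood test, Benjamini-Hochberg adjusted p below 0.05, as for all calls below). Among all 6728 genes tested, 17% were called higher and 46% lower. The median MRP log2 ratio of pulldown to total was 0.56 in the fit, against -0.38 for all genes, and 62 of 63 lay above that all-gene median. Ratios are relative to all footprints of a library, so a value describes the share of a gene in the pulldown, and fewer ribosomes per message cannot be told apart from fewer messages in such bulk data.

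MRPL51, a large subunit protein of 128 aa, was the most enriched. Its footprint level was 141.6 and 246.1 RPKM in total input and 784.7 and 984.7 RPKM in the OMM pulldown. The fitted log2 ratio was 2.23 ± 0.13 (SE, 2 OMM pairs, adjusted p = 1.39e-10). This SE and p come from 1 fit to all 12 ribosome profiling libraries, so the spread is not that of the 2 OMM pairs alone. Both pulldowns stood far above both inputs. MRPL55, also 128 aa and a counterpart of a bacterial large subunit protein, followed with log2 ratios of 1.94 and 1.86 in the replicates (fit 1.92 ± 0.10). Of its coding sequence, 44% was counted. MRPL57 (102 aa) gave 1.67 and 1.79 and MRPL41 (137 aa) 1.44 and 1.73, and both encode large subunit proteins with no bacterial counterpart. For MRPL41 the levels were 476.5 and 342.4 RPKM in total input and 1291.1 and 1137.1 RPKM in the pulldown, and these did not overlap. MRPL52 (122 aa) was next among the short genes, at 1.56 and 1.33, with 43.4% of its coding sequence counted.

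The 4 long MRP genes were all enriched at the OMM. MRPL37, a large subunit protein with no bacterial counterpart, went from 103.6 and 87.1 RPKM in total input to 254.4 and 237.5 RPKM in the pulldown (log2 1.39 ± 0.09, adjusted p = 1.5e-09). MRPS30 rose from 55.6 and 42.8 to 116.8 and 106.9 RPKM (log2 1.22 ± 0.11, adjusted p = 3.64e-08). MRPS5, the counterpart of bacterial S5, gave log2 ratios of 0.33 and 0.70 (fit 0.56 ± 0.14), and MRPS27, a pentatricopeptide repeat protein of the small subunit, gave 0.48 and 0.29 (fit 0.39 ± 0.11). The median of the 4 was 0.89, whereas all 3998 genes above 400 aa had a median of -0.64, with 240 higher and 2564 lower.

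At the other end, MRPS2 and MRPL21 were called lower. MRPS2, the counterpart of bacterial S2, had 165.2 and 129.4 RPKM in total input and 120.3 and 108.2 RPKM in the pulldown (log2 -0.33 ± 0.10, adjusted p = 0.00912), and both pulldowns lay below both inputs. This was still above the all-gene median of -0.38, and with DESeq2, whose size factors put that median near 0, MRPS2 was at 0.02 and lost its call. It also lost the call without either OMM replicate and without the pairing of fractions. MRPL21 (log2 -1.64 ± 0.45, adjusted p = 0.00454) rested on 24 countable positions, 3.9% of its coding sequence, with 99.4 and 85.0 footprints in total input and 6.5 and 13 in the pulldown. Counted over all exons its log2 ratio was 1.03, so its direction depended on which positions were counted. MRPL1 (-0.28), MRPS35 (-0.26), MRPL44 (-0.25) and MRPL19 (-0.20) completed the bottom of the list without passing the test.

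**Figure D1:**
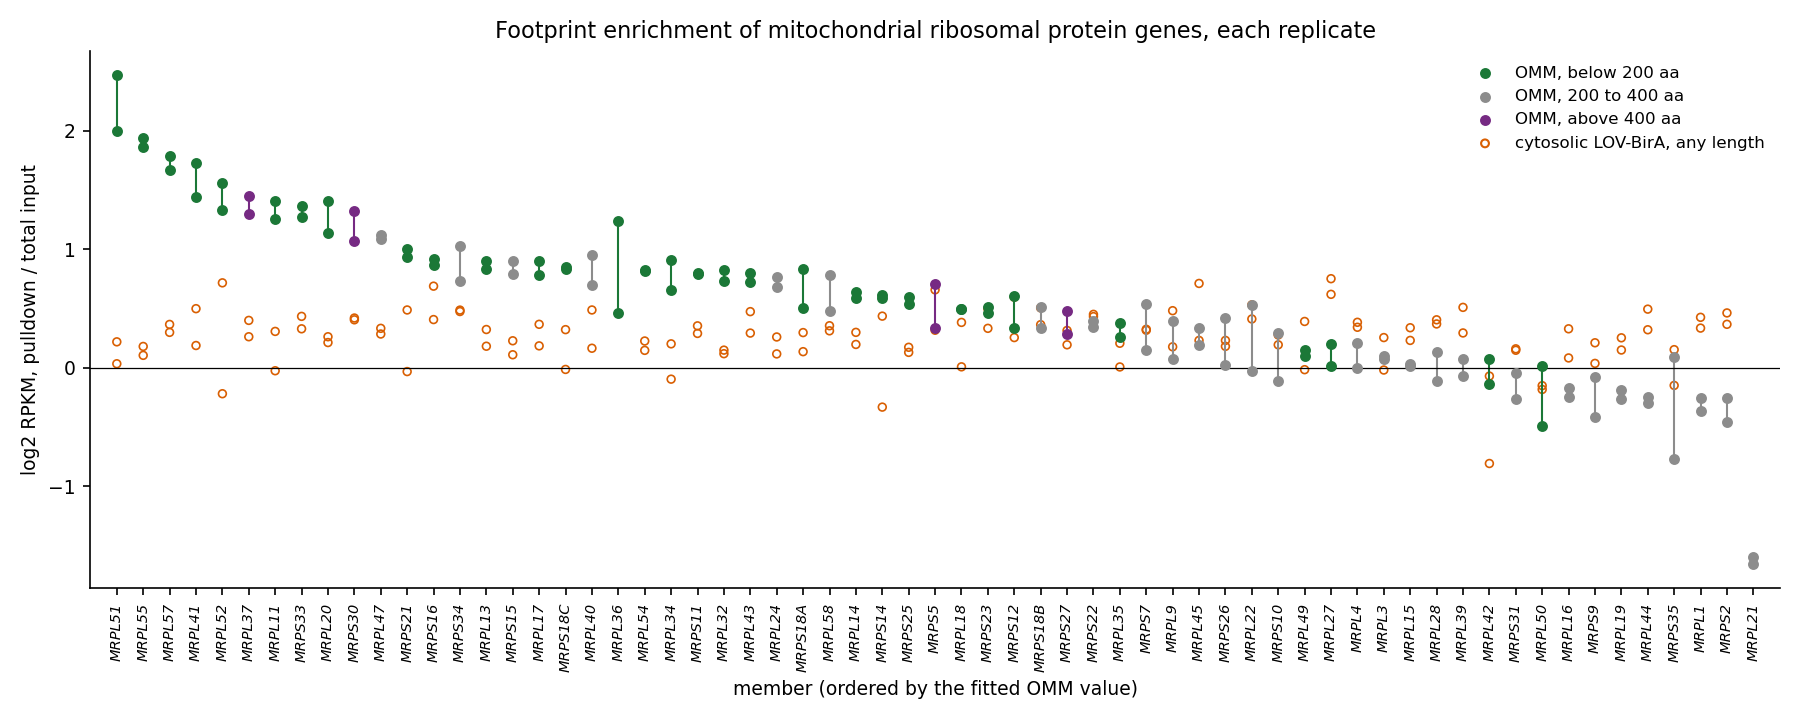
Log2 ratio of pulldown to total footprints (y axis) for the 63 MRP genes tested at the OMM, ordered by the fitted value (x axis); the 2 OMM replicates are joined by a line and coloured by length class, and open circles are the 2 replicates with cytosolic LOV-BirA. The fitted OMM values run from 2.23 (MRPL51) to -1.64 (MRPL21), while the cytosol values show no such order.

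At the OMM, short and long MRP genes had higher medians than intermediate ones, and the medians of the 2 subunits were close. Of 31 short MRP genes, 26 were enriched and 0 depleted, with a median log2 ratio of 0.82, against 0.57 for all 872 short genes (525 higher, 50 lower). Of 28 intermediate genes, 9 were enriched and 2 depleted (median 0.14), and the 4 long genes were all enriched (median 0.89). Large subunit genes had 21 enriched of 39 (median 0.64) and small subunit genes 18 of 24 (median 0.54), and placing MRPS30 and MRPS18A with the large subunit gave medians of 0.66 and 0.50. Genes with a bacterial counterpart had a median of 0.54 (22 enriched of 38) and those without 0.58 (17 of 25). All 10 short small subunit genes were enriched. These splits carry no test, because genes are not replicates.

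Across the 63 MRP genes, the fitted OMM footprint ratio fell with the log10 of coding length (Pearson's r = -0.46, Spearman's rho = -0.52). Across all 6726 genes with a length the values were -0.56 and -0.62. All points share the same libraries. The 4 long genes lie above the trend that the shorter ones form.

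**Figure D2:**
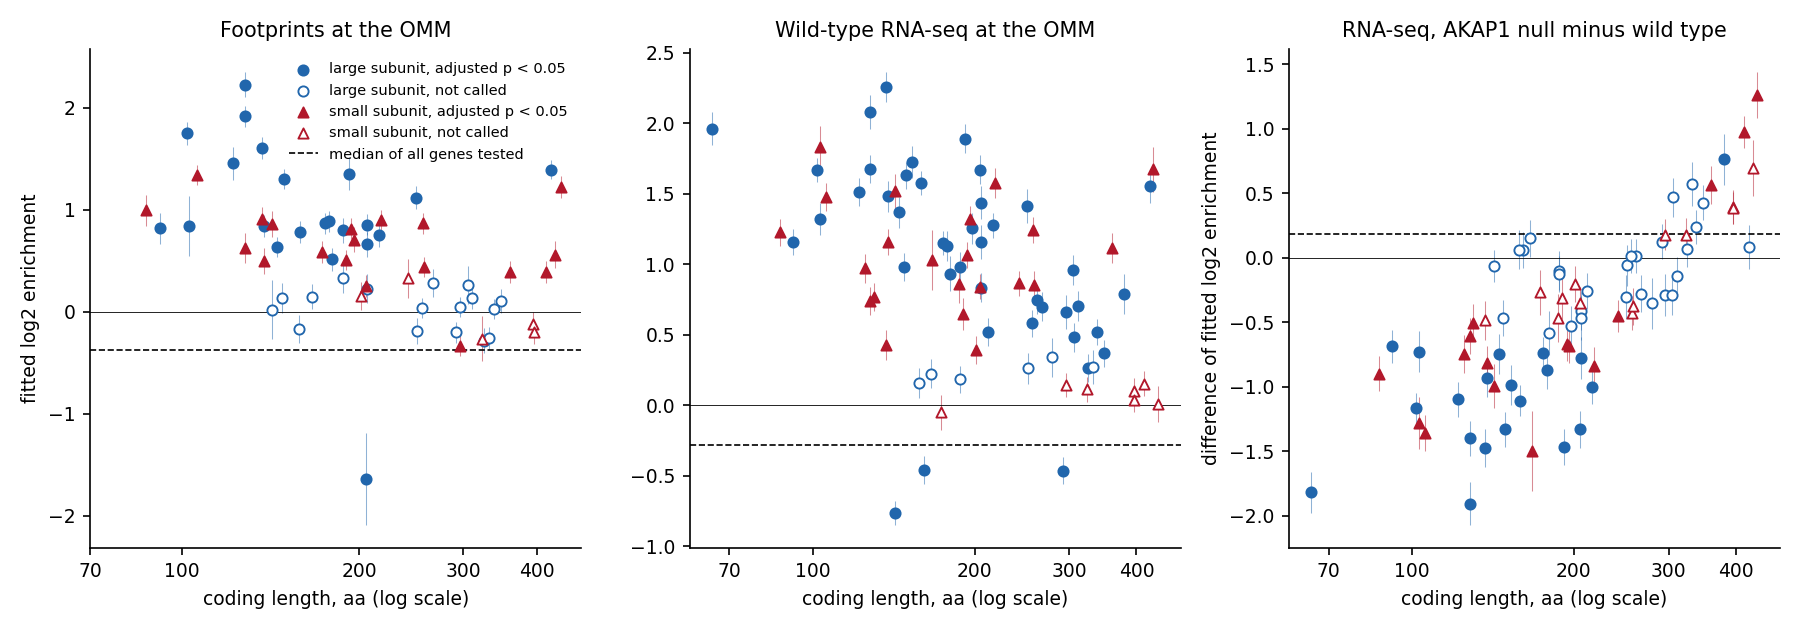
Fitted log2 ratios (y axis, bars are SE) against coding length in aa (x axis, log scale) for MRP genes, in OMM footprints, WT OMM RNA-seq and the AKAP1 null minus WT difference; blue circles are large and red triangles small subunit genes, filled where called, and dashed lines are medians of all genes tested. Ratios fall with length in the first 2 panels, with the 4 long genes above the trend in footprints, and the difference rises with length in the third, from MRPL51 (-1.91) to MRPS30 (1.26).

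With the cytosolic ligase, few MRP genes were called, as was the case for all genes. Of 61 MRP genes tested, 1 was higher and 1 lower in the pulldown, where 2.02% and 5.96% of all 7162 genes were, and the median log2 ratio was 0.02 for the MRP genes and 0.02 for all genes. Fitted ratios of MRP genes ran from -0.60, in a gene that was not called, to 0.46. By edgeR's test, 8 MRP genes and 1504 genes in all had an unadjusted p below 0.05. MRPL27, the counterpart of bacterial L27, was the higher one (0.46, adjusted p = 0.0253) and MRPL50 the lower (-0.40, adjusted p = 0.0369). Both had less than 50% of their coding sequence counted (36% and 42%), and the call of each was lost when cytosol replicate 1 was left out. Scaled to mapped reads, the median of all genes moved to 0.26 and 29 MRP genes were called higher. The share of all genes called under that scaling is not given here, so this count cannot be set against it.

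Against this background, OMM enrichment exceeded cytosol enrichment for 33 of 61 MRP genes and fell short of it for 3, where 16.6% of all 6465 genes were higher and 39.7% lower. The median difference was 0.56 on the log2 scale, against -0.36 for all genes. MRPL51 (2.34 ± 0.17), MRPL55 (2.00 ± 0.14), MRPL57 (1.65 ± 0.15), MRPL41 (1.49 ± 0.14), MRPL11 (1.49 ± 0.22) and MRPL52 (1.47 ± 0.23) led, MRPL11 being part of the stalk that recruits translation factors in bacterial ribosomes. For MRPL51 the cytosol ratios were 0.03 and 0.22, well below the OMM values of 2.47 and 2.00. Of the long genes, MRPL37 (1.29), MRPS30 (1.04) and MRPS27 (0.37, adjusted p = 0.0365) were called and MRPS5 (0.31, adjusted p = 0.142) was not.

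The 3 lower ones were MRPS2 (-0.51), MRPL44 (-0.42), which resembles a double-stranded RNA nuclease, and MRPL1 (-0.42), a stalk protein. MRPL44 gave -0.25 and -0.29 at the OMM and 0.32 and 0.50 in the cytosol, which did not overlap. With trimmed mean (TMM) or DESeq2 scaling none of the 3 kept its call. Scaled to mapped reads, the split was 28 higher and 8 lower. Replicates of OMM and cytosol (log2 ratios of RPKM) did not overlap for 45 of 61 genes, with the OMM higher in 32 and lower in 13. Over all 6465 genes they did not overlap for 82.3%, with the OMM higher for 16.1% and lower for 66.2%. Ratios of RPKM differ from the fitted scale by 0.24 and 0.23 in the cytosol and by -0.03 and -0.01 at the OMM. This offset lowers the OMM against the cytosol for every gene, so these counts of lower genes exceed those of the fit. Without the pairing of pulldown with its own total input, only 4 MRP genes were called. The shares of all genes called without the pairing and with mapped reads are not given here.

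At the ER, most MRP genes were under-represented in the pulldown. Of 63, 2 were higher and 50 lower, where 19.8% of all 7381 genes were higher and 72% lower, and the median of -0.47 was above the all-gene median of -0.68. The direction of the list therefore hung on the scaling: with TMM, which puts the all-gene median near 0, 22 were higher and 2 lower, with DESeq2 16 and 1, and scaled to mapped reads 3 and 24. The shares of all genes called under these 3 scalings are not given here, so these counts cannot be set against them. Relative to the all-gene median, 52 of 63 were above it. The lowest were MRPS31 (-0.98), MRPL16 (-0.90), MRPL19 (-0.80), MRPS9 (-0.77), MRPL42 (-0.77) and MRPL4 (-0.74).

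MRPL32 was the exception that held under every alternative run. This large subunit protein, matured by the m-AAA protease inside mitochondria before it joins the ribosome, had 127.3 and 111.8 RPKM in ER total input and 367.2 and 317.9 RPKM in the ER pulldown. Both pulldowns were far above both inputs, and the fitted log2 ratio was 1.23 ± 0.11 (adjusted p = 5.04e-09). The same gene went from 159.2 and 117.4 to 263.8 and 208.4 RPKM at the OMM (0.80 ± 0.12, adjusted p = 2.83e-05) and from 143.8 and 137.4 to 159.4 and 149.3 RPKM in the cytosol (-0.10, adjusted p = 0.646). MRPS22, a small subunit protein, was the other gene called higher at the ER (0.31 ± 0.09, adjusted p = 0.00405), with 82.9 and 90.7 RPKM in total input and 132.7 and 129.1 RPKM in the pulldown. Its call was lost without either ER replicate. Ratios of the deposited RPKM are higher than the fitted ones at the ER by 0.37 and 0.20 and in the cytosol by 0.24 and 0.23, since RPKM is scaled to mapped reads and the fit to footprints in coding sequence.

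The messages themselves were enriched at the OMM. In WT RNA-seq, 61 of 77 MRP genes were higher in the pulldown and 3 were lower, where 20.2% of all 13856 genes were higher and 45.6% lower. The median log2 ratio was 0.96, against -0.28 for all genes, and 74 of 77 lay above that. MRPL41 led: it had 45.7 and 50.6 FPKM in total input and 218.0 and 242.6 FPKM in the pulldown (log2 2.26 ± 0.11). MRPL51 had 107.8 and 110.6 FPKM in total input and 429.6 and 496.3 FPKM in the pulldown (2.08 ± 0.12). MRPL33 (1.96), MRPL11 (1.89), MRPS36 (1.83) and MRPL23 (1.73) followed, and 3 of these 4 could not be tested in OMM footprints.

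Short MRP genes had 34 of 40 higher, 2 lower and a median of 1.16, against 0.59 for all 1476 short genes. Intermediate genes had 25 higher of 33 (median 0.70). The long genes split into MRPS5 (log2 ratios 1.51 and 1.84) and MRPL37 (1.45 and 1.67), which were enriched, and MRPS27 (0.08 and 0.23) and MRPS30 (-0.03 and 0.05), which did not pass the test. The large and small subunits had medians of 0.98 (39 higher of 48) and 0.86 (22 higher of 29).

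The 3 depleted messages were MRPL42 (-0.77 ± 0.09), MRPL19 (-0.47 ± 0.10) and MRPL30 (-0.46 ± 0.10). MRPL42 had log2 ratios of -0.80 and -0.73 in the WT replicates, the furthest below 0 of the 77. With TMM or DESeq2 scaling only MRPL42 kept its call of the 3, and MRPL30 and MRPL19 also lost theirs without WT replicate 2. Their annotated transcripts carry 3′ untranslated regions (3′UTRs) of 14993, 6921 and 3856 bases, among the 5 longest MRP genes in this respect together with MRPS23 (5002) and MRPS25 (3929). MRPS23 was enriched (0.65 ± 0.12, adjusted p = 0.00136), MRPS25 was at -0.05 and not called, and MRPS33, next in order with 3820 bases, was enriched at 1.48 ± 0.10. Across the 77 genes, WT enrichment ran against the log10 of 3′UTR length (r = -0.43, rho = -0.33), of coding length (r = -0.44, rho = -0.46) and of transcript length (r = -0.60, rho = -0.57). In OMM footprints the 3′UTR relation was weak (r = -0.04, rho = -0.07, n = 63), over partly different genes.

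Footprints and messages had the same call for most MRP genes measured in both. Of 63, 36 were enriched in both and 8 called in neither. The share of all genes enriched in both is not given here. MRPL21 was called lower in footprints and higher in messages, MRPS2 lower in footprints only, and MRPL19 and MRPL42 lower in messages only. Enriched in messages only were 12 genes (MRPL1, MRPL3, MRPL4, MRPL9, MRPL15, MRPL22, MRPL27, MRPL28, MRPL39, MRPL45, MRPS7 and MRPS10). Enriched in footprints only were MRPS25, MRPS27 and MRPS30. Being called in 1 assay and not in the other is no test of a difference between them. MRPS30 had the widest gap of the long genes: its footprints were at 1.07 and 1.32 and its message at -0.03 and 0.05. The fitted values correlated across the 63 genes (r = 0.63, rho = 0.72), and across the 42 with at least 50% of the coding sequence counted r was 0.76 and rho 0.73.

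**Figure D3:**
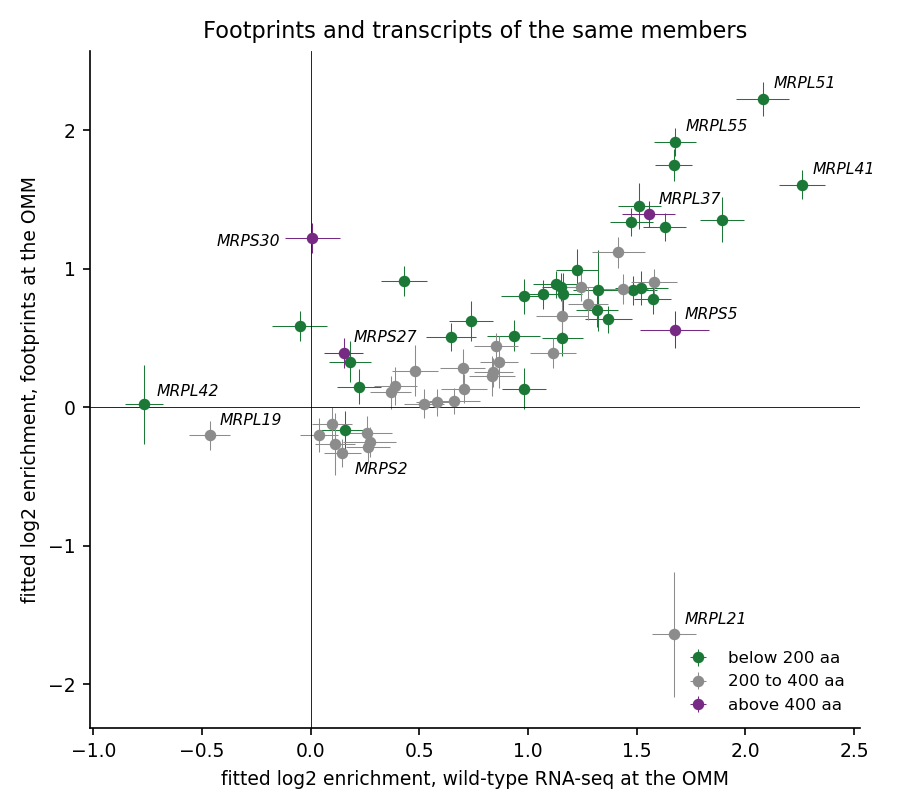
Fitted log2 pulldown to total ratio in OMM footprints (y axis) against WT OMM RNA-seq (x axis) for the 63 MRP genes in both, coloured by coding length, with SE bars. MRPL51 and MRPL41 are high on both axes, MRPS30 is at 1.22 in footprints and 0.01 in RNA-seq, and MRPL21 is at -1.64 and 1.67.

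The comparison with AKAP1 null cells asked whether MRP messages need AKAP1 for their place at the OMM. In the null line the AKAP1 message was at 6.02 and 3.81 FPKM in total input, against 21.4 and 22.4 FPKM in WT (log2 -2.15 ± 0.22, adjusted p = 0.242 over all genes). The OMM enrichment of MRP messages was lower in AKAP1 null than in WT cells for 32 of 77 genes and higher for 4, where 7.96% and 6.52% of all 13856 genes were lower and higher. The median change was -0.43, against 0.19 for all genes, and only 11 of the 77 lay above that. The count of 36 called genes fell to 14 without WT replicate 2, 17 without WT replicate 1, 15 without AKAP1 null replicate 2, 24 without AKAP1 null replicate 1, and 15 without the pairing of fractions. The shares of all genes called in these runs are not given here, so the fall cannot be called particular to MRP genes.

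MRPL51 lost the most. Its log2 enrichment was 2.00 and 2.17 in WT and 0.07 and 0.27 in AKAP1 null cells, a change of -1.91 ± 0.17 (adjusted p = 0.000403). In FPKM, its pulldown level fell from 429.6 and 496.3 to 137.0 and 126.2, while total input was at 107.8 and 110.6 in WT and 130.4 and 104.5 in the null line. MRPL33 (65 aa), the shortest MRP protein, went from 1.96 and 1.96 to 0.32 and -0.04 (change -1.82). MRPL41 went from 2.26 and 2.26 to 0.81 and 0.76, MRPL11 from 1.82 and 1.96 to 0.43 and 0.41, and MRPL55 from 1.69 and 1.66 to 0.28 and 0.27. None of these overlapped between genotypes. MRPS24 (0.73 and 1.32 to -0.38 and -0.56, adjusted p = 0.016) was at 0.831 FPKM on average over total inputs, with exons shared with a read-through gene, and its call was lost whenever 1 library pair was left out.

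All 32 genes with lower enrichment were among the 61 enriched in WT cells. Their median was 1.46 in WT and 0.41 in the null line, a fall that follows from their choice as lower genes. In the null line 24 of the 32 were still called higher in the pulldown than in total input. Over all 77 MRP genes 58 were called higher there, where 13.9% of all genes were, against 61 in WT. The 32 genes with lower enrichment encode proteins of 65 to 242 aa, 27 of them short and 5 intermediate, with 19 in the large and 13 in the small subunit. Of 40 short MRP genes 27 were lower and 0 higher (median -0.74), against 583 lower and 11 higher of all 1476 short genes (median -0.43). Of 33 intermediate genes 5 were lower and 2 higher (median -0.20).

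The 4 genes with higher enrichment rank 1, 4, 7 and 8 in length among the 78. MRPS30 went from -0.03 and 0.05 in WT to 1.02 and 1.52 in the null line, a change of 1.26 ± 0.18 (adjusted p = 0.00272), with pulldown levels of 13.1 and 13.5 FPKM against 26.1 and 37.3 FPKM. MRPS27 went from 0.08 and 0.23 to 1.05 and 1.20 (0.97 ± 0.13, adjusted p = 0.00168). Both were called under every alternative run. MRPL38 (0.76 ± 0.20, adjusted p = 0.039) and MRPS22 (0.56 ± 0.15, adjusted p = 0.0385) lost their call with TMM and with DESeq2, which subtract most of the 0.19 by which all genes moved, and without any 1 library pair. MRPL38 was also at only 1.36 FPKM on average over total inputs, and its exons overlap other genes. Of the other long genes, MRPS5 (1.51 and 1.84 to 2.04 and 2.71, adjusted p = 0.0675) and MRPL37 (1.45 and 1.67 to 1.44 and 1.84, adjusted p = 0.745) did not pass. The median of the 4 long genes was 0.84, against 0.29 for all 7276 genes above 400 aa, of which 683 were higher and 60 lower.

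Across the 77 MRP genes the change correlated with the log10 of coding length (r = 0.78, rho = 0.77), and across all 12098 genes with a length r was 0.53 and rho 0.50. Among genes with a bacterial counterpart, 22 of 48 were lower and 0 higher, and among those without, 10 of 29 were lower and 4 higher. Replicates of the 2 genotypes did not overlap for 67 of 77 genes, 14 of them higher and 53 lower in the null line, and for 75.7% of all genes tested, 53.4% higher and 22.3% lower. With TMM the split was 2 higher and 39 lower, with DESeq2 2 and 41, and in a fit to the compared libraries alone 10 and 48. The shares of all genes under these settings are not given here.

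**Figure D4:**
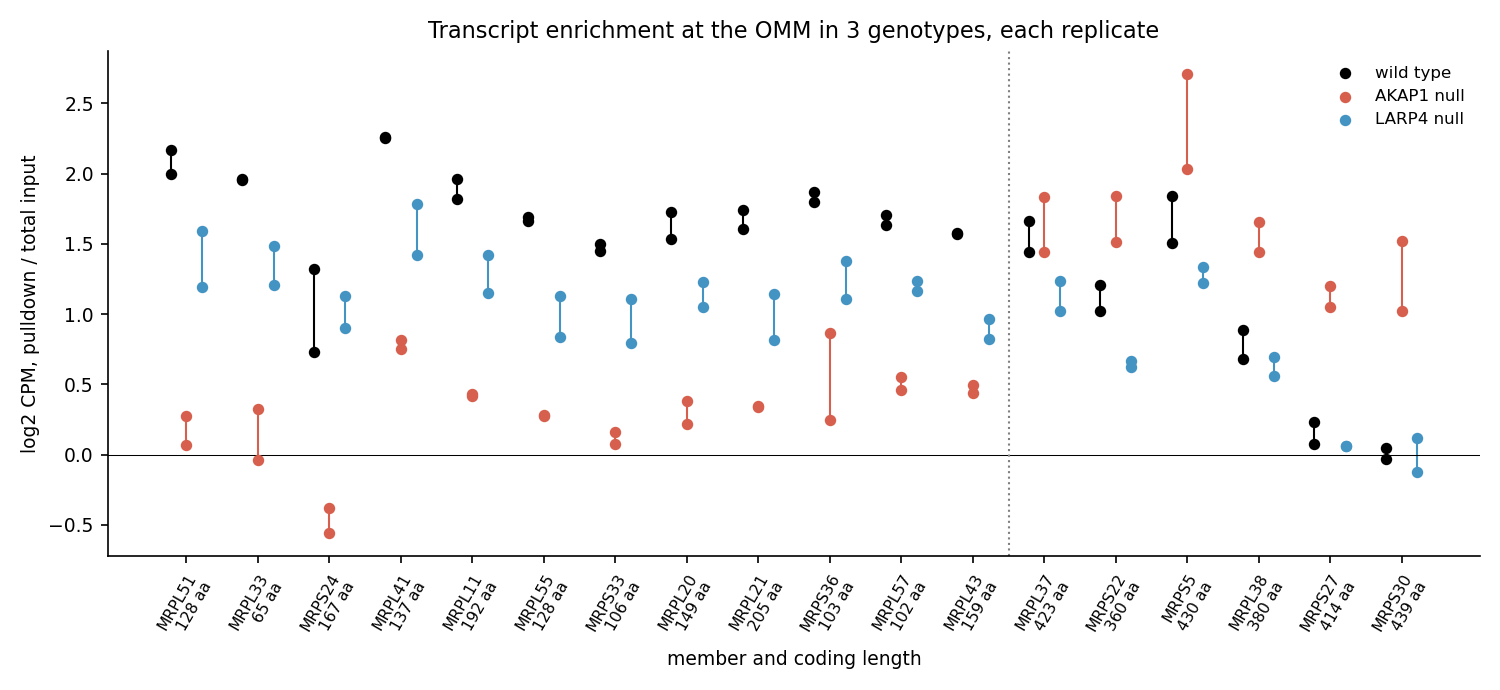
Log2 ratio of pulldown to total RNA-seq CPM, counts scaled to library size (y axis), in each replicate for 18 MRP genes (x axis), in WT (black), AKAP1 null (red) and LARP4 null (blue) cells; the 12 genes left of the dotted line have the lowest AKAP1 null minus WT values, and those on the right are the 4 called higher and the long genes. MRPL51 falls from above 1.99 to below 0.28, and MRPS30 and MRPS27 rise above 1.01.

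In LARP4 null cells the MRP genes shifted down without passing the test. LARP4 itself was at 9.78 and 9.12 FPKM against 27.7 and 28.5 FPKM in WT total input (log2 -1.56 ± 0.12, adjusted p = 0.0405). By edgeR's quasi-likelihood test 0 of 77 MRP genes changed in OMM enrichment, where 0% of all 13856 genes were called, whereas 38 MRP genes and 2270 genes in all had an unadjusted p below 0.05. DESeq2 called 34 MRP genes, all lower, where it called 3.28% of all genes lower. The median was -0.34, against 0.17 for all genes, and 0 of 77 lay above the all-gene median. This shift was not particular to MRP genes. The median was -0.658 for subunits of the respiratory chain and ATP synthase and -0.595 for cytosolic ribosomal proteins. It was -0.15 for all 1476 short genes, -0.156 for mitochondrial aminoacyl-tRNA synthetases and -0.1 for mitoribosome assembly factors. WT and LARP4 null replicates did not overlap for 59 of 77 genes, each of them lower in the null line, and for 56% of all genes tested, 43.6% higher and 12.4% lower.

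The lowest values were those of MRPL21 (-0.69), MRPL55 (-0.69), MRPL51 (-0.69 ± 0.17, adjusted p = 0.217), MRPL43 (-0.68), MRPL41 (-0.66) and MRPL40 (-0.66). MRPL51 was at 2.00 and 2.17 in WT and at 1.59 and 1.19 in the LARP4 null line, and MRPL55 at 1.69 and 1.66 against 1.13 and 0.84. MRPS30 was at -0.12 and 0.12 and MRPS27 at 0.06 and 0.06 in the LARP4 null line, within or next to their WT values. The LARP4 null pulldown replicates differed from each other more than any other pair. With 1 library pair left out, the median change of the MRP genes ranged from -0.457 to -0.239. The correlation with coding length across the 77 genes was 0.36 (rho 0.36).

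In total input no change in the abundance of MRP messages passed edgeR's test, which in AKAP1 null cells did not call the targeted gene AKAP1 either, so these counts do not show that levels were stable. There, 0 of 77 MRP genes differed between AKAP1 null and WT cells (0% of 13977 genes called), with 3 MRP genes and 489 genes in all at an unadjusted p below 0.05, 0 MRP genes by DESeq2, a median of 0.05 and a range of -0.44 to 0.26. Between LARP4 null and WT, 0 of 77 differed, where 0.0143% of genes were called, with 3 MRP genes and 509 genes in all at an unadjusted p below 0.05. DESeq2 called 1 MRP gene there, the median was -0.03, and the range ran from -0.60 (MRPS33) to 0.23. MRPL51 changed by 0.11 ± 0.13 and MRPS30 by -0.02 ± 0.09 in AKAP1 null total input, against -1.91 and 1.26 in enrichment.

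Without cycloheximide, the OMM enrichment of MRP messages was of similar size in the single replicate, which also had a shorter light pulse, and no test was possible. The median log2 ratio was 0.86, against 0.89 and 0.99 in the WT replicates with cycloheximide. The 4 long genes lay below both of those replicates: MRPL37 was at 0.82 against 1.45 and 1.67, MRPS5 at 1.14 against 1.51 and 1.84, MRPS27 at -0.31 against 0.08 and 0.23, and MRPS30 at -0.36 against -0.03 and 0.05. Over all MRP genes 44 of 77 were below both WT replicates and 24 above both, whereas of all 13856 genes 3750 were below and 8247 above. Of 40 short MRP genes 31 were below both, with a median difference of -0.20, while intermediate genes had a median difference of 0.10 and all genes 0.16. MRPS31, a small subunit protein, had the highest difference, at 1.02 against 0.08 and 0.12. Cycloheximide, the light pulse and any difference between the cell lines cannot be told apart here.

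**Figure D5:**
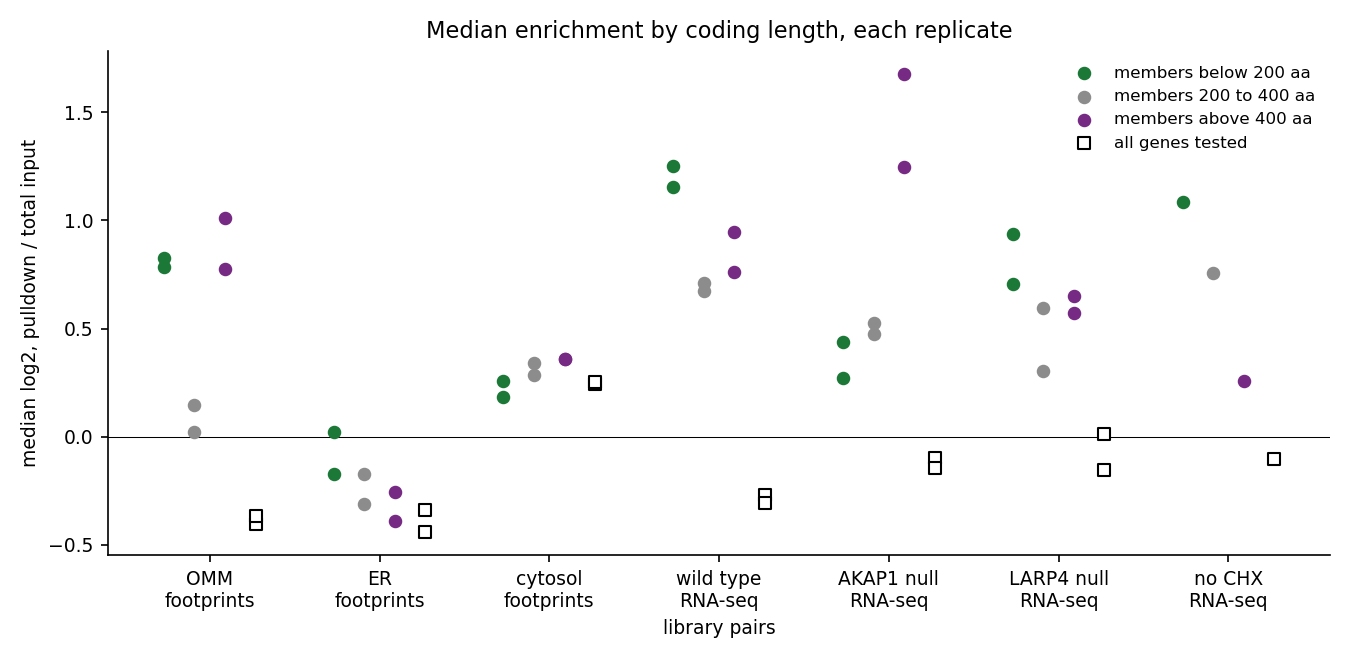
Median log2 ratio of pulldown to total (y axis) in each replicate of the 7 groups (x axis) for short, intermediate and long MRP genes and for all genes tested. Short MRP genes go from 1.15 and 1.25 in WT RNA-seq to 0.44 and 0.27 in AKAP1 null, while the 4 long ones go from 0.76 and 0.95 to 1.25 and 1.68.

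The 5 other mitoribosome proteins, whose symbols do not follow the MRP pattern, were all enriched at the OMM in footprints and in messages. PTCD3 (689 aa), a pentatricopeptide repeat protein of the small subunit, had an OMM footprint log2 ratio of 2.72 ± 0.10, a WT message ratio of 0.87 and a change in AKAP1 null of 1.55 ± 0.17 (adjusted p = 0.000718). CHCHD1 (118 aa) was at 1.35 and 1.99 and changed by -1.55 (adjusted p = 0.00125). AURKAIP1 (199 aa), at 0.75 and 1.39, changed by -0.70, and GADD45GIP1 (222 aa), at 0.55 and 1.18, by -0.52. DAP3 (398 aa), the GTP binding protein of the small subunit, was at 0.53 and 0.50 and changed by 0.56 (adjusted p = 0.0682). Mitoribosome assembly factors were enriched in OMM footprints for 13 of 22 genes (median 0.57), and in AKAP1 null 13 of 27 were higher and 1 lower (median 0.50). Mitochondrial aminoacyl-tRNA synthetases, which charge the tRNAs the mitoribosome uses, were higher in AKAP1 null for 12 of 16 and lower for 0 (median 1.20). Subunits of the respiratory chain and ATP synthase were enriched in OMM footprints for 48 of 56 (median 1.21), and in AKAP1 null 55 of 78 were lower and 9 higher (median -1.27). Cytosolic ribosomal proteins had 57 of 65 enriched in OMM footprints (median 0.96) and 75 of 78 lower in AKAP1 null (median -1.30). The products of these last genes work outside mitochondria.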

How the data were processed

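The deposited footprint files hold expected counts and RPKM per gene. The authors kept 27 to 36 nt reads aligned to GRCh38 and counted them in coding sequence with plastid (Ensembl 104), ignoring 13 nt at each end. RNA-seq gene counts were deposited by the authors after alignment with STAR and counting with featureCounts (Ensembl 99), and 3 to 7 broken lines per file were skipped. The FPKM column deposited by the authors is a score of other scale and was not used, and FPKM was recomputed from counts and gene length.

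Fits used edgeR 4.0.16 (R 4.3.3), quasi-likelihood, on counts (footprints rounded), scaled to library totals, with a term per lysate, which pairs each pulldown with its input as in the study's methods. Genes needed 64 footprints in each total input, or a mean of 64 RNA-seq counts. All 12 ribosome profiling libraries went into 1 fit, and so did the 12 RNA-seq libraries of WT, AKAP1 null and LARP4 null cells. The spread of a gene was thus estimated over all locations or all genotypes together. Total inputs were compared in 1 fit of 6 libraries, with TMM scaling and no block. Calls used a Benjamini-Hochberg adjusted p below 0.05 over all genes tested, two-sided. RNA-seq ratios per replicate are of CPM after adding 0.5 counts. DESeq2 1.42.0 was an alternative. Code was tested on simulated data. Lengths are from GENCODE 44. Named genes were the 6 highest and 6 lowest fitted values per comparison (called genes where fewer), genes above 400 aa, and genes that could not be tested. The genes and lists were chosen with earlier results of these data known.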

Additional observations from a re-analysis of the deposited data

Results flagged for a closer look

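Effects that differed between groups by a test of the difference itself were seen in 2 comparisons. OMM enrichment of footprints differed from cytosol enrichment for 36 of 61 MRP genes, 33 higher and 3 lower. Among all 6465 genes 3639 were called, 16.6% higher and 39.7% lower, so only the direction set the MRP genes apart. OMM enrichment of messages differed between AKAP1 null and WT cells for 36 of 77 MRP genes, 4 higher and 32 lower. Among all 13856 genes 2006 were called, 6.52% higher and 7.96% lower. In entries shared with overlapping genes, which no comparison used, OMM ratios lay above the cytosol ratios for MRPL33, shared with BABAM2 (mean log2 1.22), MRPS17, shared with ZNF713 (0.55), and MRPS28, shared with TPD52 (0.52). The opposite held in 4 shared entries with enough footprints. In them both OMM ratios lay below both cytosol ratios, as was the case for 66.2% of all 6465 genes tested. Ratios of RPKM are higher than the fitted ones by 0.24 and 0.23 in the cytosol, which lowers the OMM against it in every entry. The 4 were the entries of MRPL2 (0.04 and -0.05 against 0.33 and 0.53), MRPL38 (-0.29 and -0.28 against 0 and 0.05), MRPL46 (0.21 and -0.001 against 0.59 and 0.52) and MRPS24 (-0.62 and -0.55 against 0.08 and 0.58). Footprints of the overlapping genes cannot be told apart from those of the MRP genes there. Of the 10 shared entries with enough footprints, 6 were above 0 in both OMM replicates and 2 were below 0 in both.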

How the results depend on the processing

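Without the replicate block that pairs fractions, the called counts were 24 at the OMM, 17 at the ER, 0 in the cytosol, 4 for OMM against cytosol and 15 for AKAP1 null. These and the following counts are of MRP genes. Apart from LARP4 null with DESeq2, they are given without the share of all genes called under the same setting. The ER count was 17 with DESeq2, 24 with TMM and 27 with mapped reads. The cytosol count was 1 with DESeq2, 6 over all exons, 29 with mapped reads, 5 with no minimum, 0 among genes with at least 50% of their coding sequence counted (a setting chosen after seeing the data), and 4 to 5 without 1 replicate. For AKAP1 null it was 58 in a fit to the compared libraries only and 14 to 24 without 1 replicate. For LARP4 null it was 34 with DESeq2, 17 with no minimum, and 0 to 54 without 1 replicate. In LARP4 null total input, DESeq2 and no minimum each called 1. The shared replicate numbers do not pair total inputs between genotypes (correlations of deviations 0.206, 0.339 and -0.056), and with a replicate block 0 were called in both null lines. Splitting at 300 aa changed the difference between the medians of shorter and longer MRP genes. In WT messages it was 0.64, against 0.46 between short genes and all MRP genes of 200 aa or more. For AKAP1 null it was -0.99, against -0.68 with the split at 200 aa.

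Direction was reversed in 45 of the values for single genes and kept in the others: 639 stayed on their side of the threshold, 95 lost a call and 53 gained one. With DESeq2, log2 values became 0.067 (MRPL1), 0.15 (MRPL19), 0.10 (MRPL44), 0.019 (MRPS2) and 0.067 (MRPS35) at the OMM, 0.58 (MRPL13), 0.48 (MRPL22), 0.12 (MRPL37), 0.48 (MRPL47) and 0.50 (MRPS21) at the ER, 0.15 (MRPL16) and 0.16 (MRPL19) for OMM against cytosol, 0.23 (MRPS25) in WT and -0.061 (MRPL37) for AKAP1 null. With TMM they became 0.037 (MRPL1), 0.12 (MRPL19), 0.066 (MRPL44) and 0.056 (MRPS35) at the OMM, 0.62 (MRPL13), 0.52 (MRPL22), 0.15 (MRPL37), 0.52 (MRPL47), 0.53 (MRPS21) and 0.024 (MRPS30) at the ER, 0.15 (MRPL16) and 0.15 (MRPL19) for OMM against cytosol, 0.24 (MRPS25) in WT and -0.088 (MRPL37) for AKAP1 null. Over all exons MRPL21 was at 1.03 at the OMM and MRPL27 at 0.33 against the cytosol, and with mapped reads MRPL13 (0.26), MRPL22 (0.16), MRPL47 (0.15) and MRPS21 (0.17) were above 0 at the ER. Leaving out 1 replicate took values across 0 for MRPS35 at the OMM (-0.74 to 0.11), MRPL13 at the ER (-0.092 to 0.041), MRPS27 in the cytosol (-0.041 to 0.086), MRPS30 in WT (-0.029 to 0.046), MRPL37 for AKAP1 null (-0.11 to 0.28), MRPS30 for LARP4 null (-0.13 to 0.11), MRPS27 in the total inputs of AKAP1 null (-0.22 to 0.015) and LARP4 null (-0.15 to 0.034), and MRPL37 in that of LARP4 null (-0.10 to 0.049). The scaling alternatives shift all genes by a constant per library, and the causes of the other changes were not tested.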
